A study of Homo sapiens with 13 samples.

Results

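The genes described here are the 76 nuclear genes for mitochondrial ribosomal proteins, chosen as every protein-coding row of the count table whose Ensembl identifier maps to a symbol that starts with MRPL or MRPS and a digit. They are 76 of 56238 rows and of 18849 protein-coding rows, with 48 named for the large subunit (MRPL) and 28 for the small subunit (MRPS). All 76 passed the filter on low counts, and no row was matched for MRPL45 and MRPS21, which were not analysed here.

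RNA was sequenced from 13 clonal lines of 293T, a human embryonic kidney line that carries the SV40 large T antigen. Each line was expanded from 1 sorted cell after transfection with Cas9, a guide and a single-stranded repair template aimed at the variant site rs199643834 in FLCN. FLCN encodes folliculin, a tumour suppressor that acts in nutrient sensing at the lysosome. The genotype label gives 3 copies of the site: 2 clones carried the alternative allele on 3 of 3 copies (HOM), 7 clones on 1 of 3 (HET) and 4 clones on 0 of 3 (WT). All groups, WT included, were clones from transfected cells selected with puromycin, so each value belongs to a line grown from 1 cell. The labels do not say whether a clone was grown or harvested more than once, and the spread below is that between clones.

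The mitochondrial ribosome translates the few messenger RNAs encoded by mitochondrial DNA, all of them for subunits of the respiratory chain and ATP synthase. Its ribosomal RNAs come from mitochondrial DNA, whereas its proteins are encoded in the nucleus, made in the cytosol and imported. Some of these proteins descend from bacterial ribosomal proteins and others were added in the mitochondrial lineage. The large subunit holds the peptidyl transferase centre, the stalk that recruits translation factors and a tunnel exit at the inner membrane, and the small subunit decodes the messenger RNA.

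Total counts ran from 44504068 to 54377639 per clone, and a member's count in a clone from 189 (MRPL41) to 12729 (MRPL37). Levels below are CPM, that is counts divided by the library size scaled by TMM, a normalization between libraries. VIM, an intermediate filament gene expressed by 293T cells, lay at 207 to 739 CPM and KRT18, an epithelial keratin, at 33.5 to 70.5 CPM. Of the other genes listed with them as 293T markers, NEFM lay at only 0.0724 to 2.65 CPM. INA ranged from 0.145 to 40.6 CPM, and NEFL had no matched row. The blood genes PTPRC, CD3E and HBB, the hepatocyte gene ALB and the astrocyte gene GFAP lay at or under 0.97 CPM in every clone. Of the fibroblast genes, COL1A1 ranged from 2.75 to 29.5 CPM and COL3A1 from 0.709 to 13.0 CPM. The edit changes 1 base, and FLCN itself (23.7 to 64.0 CPM) is no check of the genotype labels.

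Promoter sequence is given first because the same few factors are known to bind the promoters of many of these genes. ETS-family factors such as GABP (nuclear respiratory factor 2) read CCGGAAG, YY1 reads AAGATGGC and NRF1 reads GCGCATGC, each searched on both strands in windows from 250 bases before to 50 bases after the start site, taken from RefSeq (GRCh38.p14). Of the 76 members, 67 had a window, 41 of the large and 26 of the small subunit. CCGGAAG was in 28 of them (41.8%), against 17.4% of the 11567 tested protein-coding genes with a window and 10.7% of all 27305 windows. AAGATGGC was in 19 (28.4%), against 4.85% of tested genes and 3.03% of all windows. GCGCATGC was in 6 (8.96%), against 5.11% and 3.27%. At least 1 of the 3 was in 40 members (59.7%), against 24.6% of tested genes, and 8 members held both CCGGAAG and AAGATGGC, with 0 overlapping matches between those motifs. A match is a run of letters and not a shown binding site.

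The 120 bases before the start of 8 members named below are printed, with matches on either strand in capitals. All 8 stretches hold a match, whereas many members have none in these 120 bases. Among those without one are MRPL9, MRPL18, MRPL24, MRPL39, MRPL49 and MRPS7. The shares above are over the longer windows. MRPL47, MRPL52, MRPL32 and MRPS18A are among members with a fitted fold change above 0 in HOM clones, MRPL51 and MRPS18B had the highest levels per length in their subunits, and MRPL36 and MRPL43 had fitted fold changes below 0. MRPL47 pairs the ETS and YY1 letters, MRPL52 repeats the YY1 letters and MRPL51 the ETS letters, MRPL32 and MRPS18B hold the NRF1 letters, MRPS18A and MRPL43 hold 1 ETS match, and MRPL36 holds 1 YY1 match.
MRPL47 (chr3:179604639-179604758, minus strand): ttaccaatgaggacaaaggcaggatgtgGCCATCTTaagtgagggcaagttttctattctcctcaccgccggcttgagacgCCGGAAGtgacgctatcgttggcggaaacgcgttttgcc
MRPL52 (chr14:22829767-22829886, plus strand): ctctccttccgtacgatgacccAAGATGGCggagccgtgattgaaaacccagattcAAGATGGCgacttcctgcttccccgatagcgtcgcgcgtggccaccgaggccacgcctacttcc
MRPL32 (chr7:42932256-42932375, plus strand): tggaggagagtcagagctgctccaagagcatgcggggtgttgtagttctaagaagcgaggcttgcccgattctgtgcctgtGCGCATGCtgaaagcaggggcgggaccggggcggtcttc
MRPL51 (chr12:6493263-6493382, minus strand): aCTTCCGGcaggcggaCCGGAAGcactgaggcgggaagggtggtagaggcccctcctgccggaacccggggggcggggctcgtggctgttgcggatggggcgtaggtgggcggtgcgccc
MRPS18B (chr6:30617720-30617839, plus strand): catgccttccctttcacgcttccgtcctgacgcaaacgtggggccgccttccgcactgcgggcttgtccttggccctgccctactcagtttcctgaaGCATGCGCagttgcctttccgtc
MRPS18A (chr6:43687792-43687911, minus strand): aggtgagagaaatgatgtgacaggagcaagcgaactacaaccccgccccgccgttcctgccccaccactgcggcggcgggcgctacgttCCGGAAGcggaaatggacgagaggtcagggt
MRPL36 (chr5:1799838-1799957, minus strand): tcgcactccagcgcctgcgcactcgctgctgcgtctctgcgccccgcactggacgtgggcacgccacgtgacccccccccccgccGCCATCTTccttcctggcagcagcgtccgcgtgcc
MRPL43 (chr10:100987498-100987617, minus strand): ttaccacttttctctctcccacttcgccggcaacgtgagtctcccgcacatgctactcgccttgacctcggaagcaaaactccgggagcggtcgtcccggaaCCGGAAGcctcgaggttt
The medians of members with and without these letters were compared next. The median log2 fold change of HET against WT was 0.20 with CCGGAAG and 0.28 without, and 0.24 both with and without AAGATGGC. For HOM against WT it was 0.28 both with and without CCGGAAG, and 0.39 with AAGATGGC against 0.26 without. The difference between these subsets was not tested.

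Per kilobase of exon, levels spanned a wide range within each subunit (RPKM, mean over 13 clones, with lengths that join all annotated exons of a gene and so understate genes with long rare exons). In the large subunit the highest were MRPL51 (94.5 RPKM ± 9.17 SD, n = 13), MRPL37 (82.7 ± 15.1) and MRPL15 (65.5 ± 15.4), of which MRPL15 has a bacterial homologue and the other two are mitochondrial additions. The lowest of the large subunit were MRPL46 (1.66 RPKM), MRPL41 (4.22 RPKM) and MRPL34 (5.61 RPKM). In the small subunit MRPS18B (56.0 RPKM ± 10.3), MRPS35 (43.5 ± 8.39) and MRPS10 (37.3 ± 6.58) were highest, and MRPS18C (4.02 RPKM), MRPS6 (5.2 RPKM) and MRPS11 (5.73 RPKM) were lowest. The medians of the subunits were close, 17.8 RPKM in the large and 16.6 RPKM in the small.

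Most members had more RNA in HOM and HET clones than in WT clones, but no single member passed edgeR's test across all genes, while other tools called some. Summed over the 76 members, levels were 4353 and 4327 CPM in HOM 1 and HOM 2. Among the 7 HET clones the sum ran from 3169 CPM (HET 6) through a median at HET 2 of 4284 CPM to 4987 CPM (HET 3). The WT clones had 3998, 3257, 3485 and 3246 CPM. Group means were 4340 ± 18.2 CPM in HOM (SD, n = 2), 4256 ± 622 CPM in HET (SD, n = 7) and 3497 ± 352 CPM in WT (SD, n = 4). Both HOM clones and 5 of the 7 HET clones lay above the highest WT clone, and HET 6 lay below every WT clone. In these bulk samples of single lines, a low level in only some cells of a clone and less RNA in every cell cannot be told apart.

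The large subunit showed the clearer order. Its mean log2 CPM was 5.45 in both HOM clones, lay between 4.97 (HET 6) and 5.61 (HET 3) in HET clones, and was 5.22, 4.98, 5.19 and 5.06 in WT 1 to WT 4. The 2 HOM clones and all HET clones except HET 6 stood above the 4 WT clones. For the small subunit the HOM clones had 5.62 and 5.59, HET clones 5.17 (HET 6) to 5.81 (HET 3), and WT clones 5.58, 5.29, 5.33 and 5.23. Here WT 1 overlapped the HET clones and lay just below both HOM clones. The large subunit's mean minus the small subunit's was -0.17 and -0.14 in HOM clones, -0.20 to -0.11 in HET clones and -0.37 to -0.14 in WT clones, and the lowest of these belonged to WT 1.

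**Figure D1:**
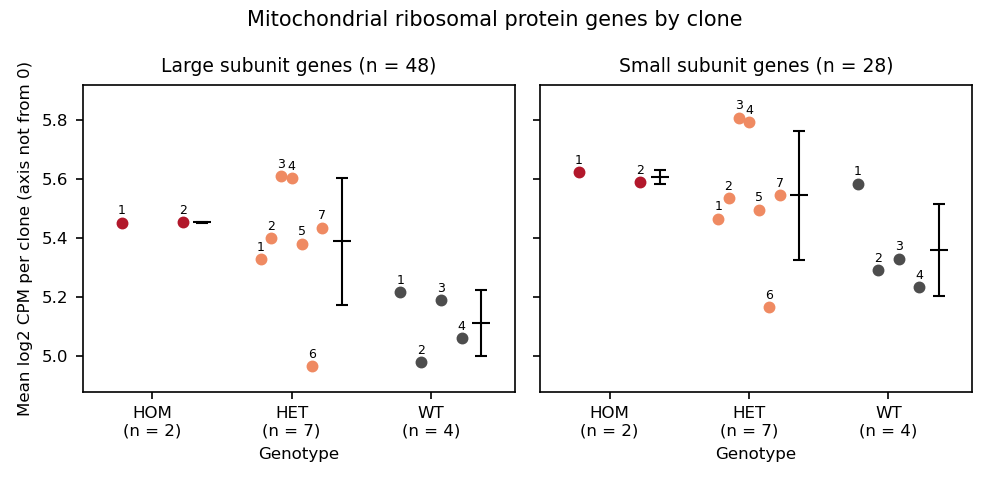
Mean log2 CPM of the 48 large subunit genes (left) and the 28 small subunit genes (right), with 1 numbered point per clone, the group mean and SD bars beside the points, and a y axis that does not start at 0. HET 6 is the lowest HET clone in both panels, at 4.97 and 5.17, and WT 1 is the highest WT clone in both, at 5.22 and 5.58.

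In HET against WT clones, 0 of 76 members passed an adjusted p of 0.05 in edgeR's quasi-likelihood test with Benjamini-Hochberg adjustment over 20320 genes, where 0.128% of all genes did. At an unadjusted p under 0.05, 26 members (34.2%) were higher, against 9.73% of all genes, and 0 were lower, against 8.73%. They were 20 of the 48 large subunit genes and 6 of the 28 small subunit genes. The fitted fold change was above 0 for 64 members (84.2%), against 50.8% of all genes. Its median was 0.32 for the large and 0.20 for the small subunit on the log2 scale, against 0.01 over all genes tested. Groups did not overlap for 2 members, MRPL49 and MRPS7, both higher in HET (2.63% of members, against 1.23% of all genes), and 0 members were lower without overlap, against 1.38%. DESeq2, run as an alternative, called 8 members, all higher (MRPL9, MRPL18, MRPL24, MRPL30, MRPL35, MRPL39, MRPL49 and MRPS7), where it called 4.98% of all genes. The limma voom fit with sample weights called 29 members, all higher, where it called 20.8% of all genes.

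In HOM against WT clones the count was again 0 of 76 by edgeR, and 0% of all genes passed. At an unadjusted p under 0.05, 20 members (26.3%) were higher, against 7.52% of all genes, and 0 lower, against 6.84%. The fitted fold change was above 0 for 60 members (78.9%), against 49.0% of all genes, with medians of 0.31 for the large and 0.28 for the small subunit, against -0.01 over all genes. The 2 HOM clones lay above all 4 WT clones for 24 members (31.6%), against 12.8% of all genes, and below them for 0 members, against 12.8%. DESeq2 called 0 members, with 1.71% of all genes called, and voom called 4 (MRPL3, MRPL13, MRPL39 and MRPS18C, all higher), with 2.94% of all genes called. The HET and HOM comparisons share the 4 WT clones and are not independent.

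HOM against HET clones gave 0 of 76 members by edgeR, with 0% of all genes called, and 0 by DESeq2 and by voom, with 0.0738% and 0.00492% of all genes called. At an unadjusted p under 0.05 the count was 0 higher, against 1.91% of all genes, and 0 lower, against 0.891%. The fitted fold change was above 0 for 49 members (64.5%), against 45.1% of all genes, with medians of 0.05 for the large and 0.02 for the small subunit, against -0.03.

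The members' levels also differed among clones of 1 genotype. HET 6 was the lowest of the 7 HET clones for 53 members (69.7%), against 23.0% of all genes. HET 3 was the highest for 35 members (46.1%, against 19.5%) and HET 4 for 25 (32.9%, against 12.6%). Among WT clones, WT 1 was the highest for 43 members (56.6%, against 34.0%) and WT 4 the lowest for 30 (39.5%, against 23.7%). The share of counts on long intergenic RNA genes was 0.311% to 0.531% in HOM, 0.247% to 0.44% in HET and 0.389% to 0.482% in WT clones, and HET 6 held the highest share of the HET clones. The HOM clones did not follow this, since HOM 1 held 0.531% and HOM 2 0.311% at nearly equal member sums. The part of library make-up in the members' levels was not tested. A surrogate variable estimated from all genes had values from 0.32 to 0.44 in WT 2, WT 3, WT 4 and HET 6 and at most 0.02 in every other clone. With it in the model the medians of HET against WT became 0.10 for the large and -0.05 for the small subunit, and those of HOM against WT 0.12 and -0.09. Because the variable nearly follows the WT label, its part in the genotype differences and that of genotype cannot be told apart. Without HET 6, edgeR called 15 members in HET against WT (all higher), where it called 7.74% of all genes. Without WT 1 it called 13 members, all higher, and 7.14% of all genes in HET against WT, and 2 members and 1.22% of all genes in HOM against WT. The members' median deviation from their own medians over the 13 clones was -0.36 in HET 6 and -0.01 in WT 1, against -0.29, -0.16 and -0.27 in WT 2, WT 3 and WT 4.

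**Figure D2:**
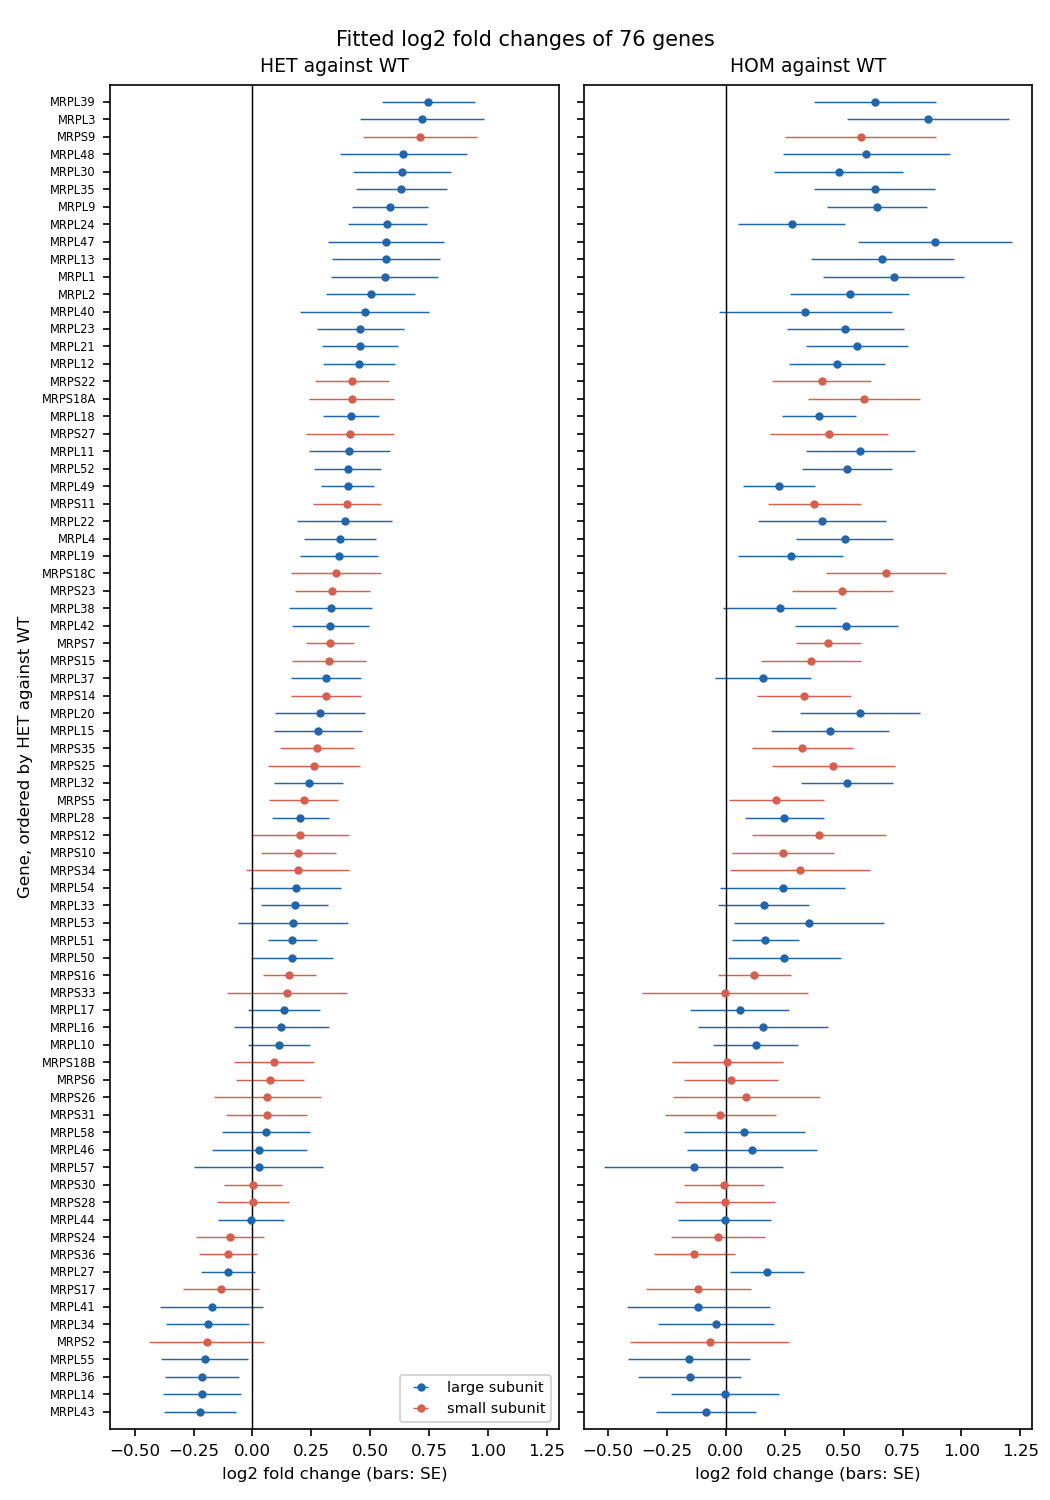
Fitted log2 fold change with SE for each of the 76 genes in HET against WT (left) and HOM against WT (right), ordered by the left panel and coloured by subunit. Of the 76 genes, 64 lie right of 0 on the left and 60 on the right, and none passed the adjusted threshold by edgeR in either, where DESeq2 called 8 and 0 and voom 29 and 4.

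Among large subunit proteins, MRPL39 had the lowest p in HET against WT. It is a mitochondrial addition to the ribosome. MRPL39 stood at 49.4 and 61.1 CPM in HOM clones, at 38.8 to 71.6 CPM with a median of 62.0 in HET clones, and at 53.4, 32.2, 30.5 and 26.7 CPM in WT clones. HET 6 was the low HET clone and WT 1 the high WT clone, and they overlapped. The fitted log2 fold change was 0.75 (SE 0.20, adjusted p = 0.097, edgeR) in HET and 0.63 (SE 0.26, adjusted p = 0.30, edgeR) in HOM, each against WT.

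MRPL9, a bacterial homologue, had 50.3 and 46.9 CPM in HOM clones, 31.8 to 60.8 CPM (median 46.8) in HET clones, and 31.2, 27.2, 34.2 and 32.2 CPM in WT clones. The HOM clones lay above every WT clone, and of the HET clones only HET 6 fell inside the WT range. The log2 fold change was 0.58 (SE 0.16, adjusted p = 0.10, edgeR) for HET and 0.64 (SE 0.21, adjusted p = 0.24, edgeR) for HOM.

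MRPL49, another mitochondrial addition, had 116.4 and 136.5 CPM in HOM clones and 129.9 to 159.7 CPM (median 141.5) in HET clones, against 128.6, 103.7, 98.0 and 102.4 CPM in WT clones. The lowest HET clone was just above WT 1. The HET against WT log2 fold change was 0.40 (SE 0.11, adjusted p = 0.10, edgeR). MRPL18, a homologue of the bacterial protein that binds 5S ribosomal RNA, had 72.6 and 93.3 CPM in HOM clones and 72.1 to 90.5 CPM (median 86.5) in HET clones. In WT clones MRPL18 had 73.8, 66.2, 56.6 and 55.6 CPM, so that only HET 7, HOM 1 and WT 1 overlapped. Its HET against WT log2 fold change was 0.42 (SE 0.12, adjusted p = 0.10, edgeR).

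MRPL24 and MRPL35 complete the 6 of lowest p in that comparison. MRPL24, at the tunnel exit, had a log2 fold change of 0.57 (adjusted p = 0.11, edgeR), with 57.2 and 75.03 CPM in HOM, 50.4 to 97.2 CPM in HET and 51.2 to 57.6 CPM in WT clones. MRPL35 had one of 0.63 (adjusted p = 0.12, edgeR), with 73.8 and 69.9 CPM in HOM, 42.2 to 85.9 CPM in HET and 33.5 to 63.6 CPM in WT clones. HET 6 was the lowest HET clone for both. The 8 members placed at the tunnel exit had medians of 0.43 in HET and 0.46 in HOM, the 3 of the stalk 0.41 and 0.47, and the 6 of the central protuberance 0.38 and 0.28, each against WT. MRPL12, the stalk protein, had 42.6 and 52.2 CPM in HOM, 33.5 to 58.2 CPM in HET and 30.3, 29.3, 38.1 and 38.9 CPM in WT clones (log2 fold change 0.45, adjusted p = 0.15 for HET, edgeR). MRPL58, a peptidyl-tRNA hydrolase built into the large subunit that frees stalled chains, had a log2 fold change of 0.06 in HET and 0.08 in HOM.

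In HOM against WT the lowest p belonged to MRPS7, the homologue of a head protein of the bacterial small subunit. It had 93.4 and 105.0 CPM in HOM clones, 84.7 to 103.3 CPM (median 87.5) in HET clones, and 78.6, 75.1, 73.0 and 66.8 CPM in WT clones. No WT clone reached any edited clone. The log2 fold change was 0.44 (SE 0.14, adjusted p = 0.23, edgeR) in HOM and 0.33 (SE 0.10, adjusted p = 0.12, edgeR) in HET.

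MRPL47, at the tunnel exit, had the largest fitted change among members in HOM, 0.89 (SE 0.33, adjusted p = 0.26, edgeR). Its HOM clones had 64.7 and 36.2 CPM, HET clones 28.5 to 65.7 CPM (median 37.8), and WT clones 40.6, 26.3, 23.7 and 18.5 CPM. HOM 1 and HET 4 stood alone at the top, and HOM 2 lay under WT 1. MRPL52 (log2 fold change 0.52), MRPS18C (0.68) and MRPL32 (0.51), whose homologue in yeast and mouse is matured by the m-AAA protease, followed with adjusted p from 0.26 to 0.27 by edgeR.

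**Figure D3:**
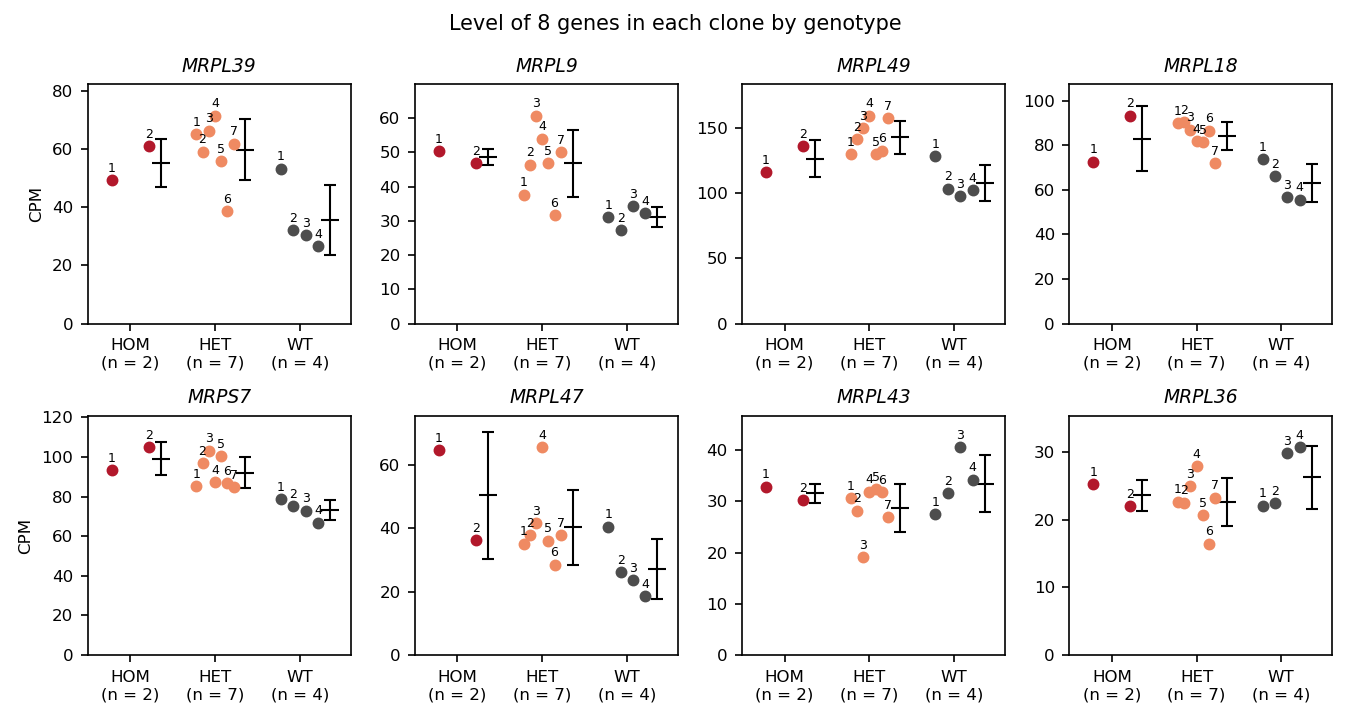
CPM of 8 members in each numbered clone, by genotype, with group mean and SD bars beside the points. MRPS7 and MRPL49 show HET clones above all WT clones, HET 6 falls low for MRPL39 and MRPL9, and MRPL43 and MRPL36 overlap across all 3 genotypes.

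Fitted changes below 0 were the smaller part, and none had an unadjusted p under 0.05. In HET against WT those of lowest p were MRPL43 (-0.22), MRPL36 (-0.21), MRPL14 (-0.21) and MRPL55 (-0.20), with adjusted p from 0.46 to 0.59 by edgeR. MRPL14, which binds the assembly factor MALSU1, had 52.4 and 47.8 CPM in HOM clones, 31.1 to 56.3 CPM in HET clones and 46.3, 38.8, 58.3 and 57.5 CPM in WT clones. In HOM against WT those of lowest p were MRPS36 (-0.13), MRPL36 (-0.15), MRPL55 (-0.16) and MRPS17 (-0.12). MRPS36 is now placed in the 2-oxoglutarate dehydrogenase complex and not in the ribosome, and it had the smallest spread of all members among HET clones, with an SD of 0.09 in log2 CPM against a median of 0.29.

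In HOM against HET the lowest p belonged to MRPL27 (0.28, SE 0.14), MRPL32 (0.28) and MRPS18C (0.32) upward and by MRPL24 (-0.29), MRPL49 (-0.18) and MRPL37 (-0.15) downward, all with an adjusted p of 1 by edgeR. MRPL37 rests on HOM 1, with 180.6 CPM there, 229.1 CPM in HOM 2 and 156.5 to 282.7 CPM in HET clones, and its value without HOM 1 was 0.02.

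The 3 MRPS18 paralogs occupy different places, since MRPS18A sits in the large subunit, as does MRPS30, while MRPS18B and MRPS18C sit in the small. MRPS18A had 19.8 and 22.2 CPM in HOM, 12.6 to 22.1 CPM in HET and 16.2, 11.4, 14.5 and 13.8 CPM in WT clones, with log2 fold changes of 0.59 in HOM and 0.42 in HET. MRPS18C had 28.2 and 22.2 CPM in HOM, 17.7 to 24.9 CPM in HET and 23.9, 15.1, 12.8 and 11.2 CPM in WT clones. MRPS18B had 96.5 and 108.7 CPM in HOM, 69.1 to 134.4 CPM in HET and 126.1, 96.0, 87.5 and 98.9 CPM in WT clones, with log2 fold changes of 0.01 in HOM and 0.09 in HET. MRPS30 had log2 fold changes of -0.01 in HOM and 0.00 in HET, and MRPS12, of the decoding centre, 0.39 and 0.20. Placing MRPS18A and MRPS30 with the large subunit and leaving MRPS36 out gave medians of 0.32 for the large and 0.20 for the small subunit in HET against WT, and 0.31 and 0.32 in HOM against WT, where the small subunit was then the higher.

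The 45 members with a bacterial homologue had a median log2 fold change of 0.31 in HET and 0.38 in HOM, each against WT. The 31 listed as mitochondrial additions had 0.18 and 0.23. These 31 include MRPS36, now placed outside the ribosome, and MRPS18A and MRPS18B, paralogs of a member with a bacterial homologue. The difference by origin was not tested. GC content was that of each gene's longest annotated transcript. The 26 members of lowest GC (33.5% to 43.8%) had medians of 0.32 in HET and 0.37 in HOM. The 25 of middle GC had 0.22 and 0.21, and the 25 of highest GC (52.3% to 71.9%) 0.20 and 0.28. The spread among WT clones was widest for MRPL57 (SD 0.64 in log2 CPM), MRPL13 (0.64) and MRPL3 (0.55), and that among HET clones for MRPS33 (0.60), MRPL48 (0.58) and MRPL40 (0.55). MRPL3, a homologue of a protein near the bacterial peptidyl transferase centre, had 197.8 and 185.9 CPM in HOM clones, 94.0 to 247.0 CPM in HET clones and 176.0, 89.0, 82.7 and 76.2 CPM in WT clones. WT 1 stood with the edited clones and HET 6 with the other WT clones. MRPL13 showed the same order in WT, with 70.7, 42.8, 28.8 and 26.7 CPM, against 73.3 and 60.6 CPM in HOM and 46.8 to 74.7 CPM in HET clones.

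In single clones members often shared the direction of the chromosome they lie on. The 76 genes lie on 21 chromosomes. A chromosome's median in a clone was taken over its protein-coding genes of mean log2 CPM above 3. Each gene entered as its difference from its own median over the 13 clones. Members above that level are among these genes, so the members' median and the chromosome's are not independent. For 13 pairs of a clone and a chromosome with a member, the chromosome's median was at least 0.2 log2 units from 0. That limit was set after the values were seen. In 12 of the 13 the members' median deviation lay on the same side of 0 as that of the chromosome. Some of these pairs rest on few members. Chromosome 14 in HET 5 has 1 member. On chromosome 10 in HET 3 and chromosome 13 in HET 4, only 1 of 2 members shared the direction. In HET 7 the median of the 529 genes of chromosome 6 was -0.35. All 6 members there (MRPL2, MRPL14, MRPL18, MRPS10, MRPS18A and MRPS18B) were lowest in HET 7 among HET clones, with a median deviation of -0.51 from their own medians over 13 clones, against 0.05 for all members in that clone. MRPS18B, for example, had 69.1 CPM in HET 7 and at least 93.5 CPM in the other HET clones.

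In HET 2 the median of chromosome 2 was 0.28, and of the 8 members there 5 were highest in HET 2 (MRPL19, MRPL33, MRPL35, MRPS5 and MRPS9), with a median deviation of 0.33. In WT 4 chromosome 2 was at -0.30 and 6 of the 8 members were lowest there among WT clones, at a median of -0.51, against -0.27 for all members. Chromosome 1 was at -0.25 in HET 1 and -0.30 in WT 1, and its 7 members had medians of -0.30 and -0.28 there. For all members the median deviation was 0.00 in HET 1 and -0.01 in WT 1. Chromosome 10 was at -0.24 in HET 3, where MRPL43 had 19.1 CPM against 26.9 to 32.4 CPM in the other HET clones, while MRPS16, the other member there, had 92.0 CPM, equal to its median over the 13 clones. Chromosome 17 was at -0.26 in HOM 1, yet its 7 members had a median deviation of 0.00. DNA was not measured, and the part of copy number was not tested. With each chromosome's median taken out, 60 of the 76 members had a fold change above 0 in HET against WT and 63 in HOM against WT. The median over all genes tested was then -0.03 in both comparisons. With the surrogate variable in the model instead, these counts were 44 and 45, and the medians over all genes 0.03 and 0.02. The share of all genes above 0 under these settings is not given here.

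**Figure D4:**
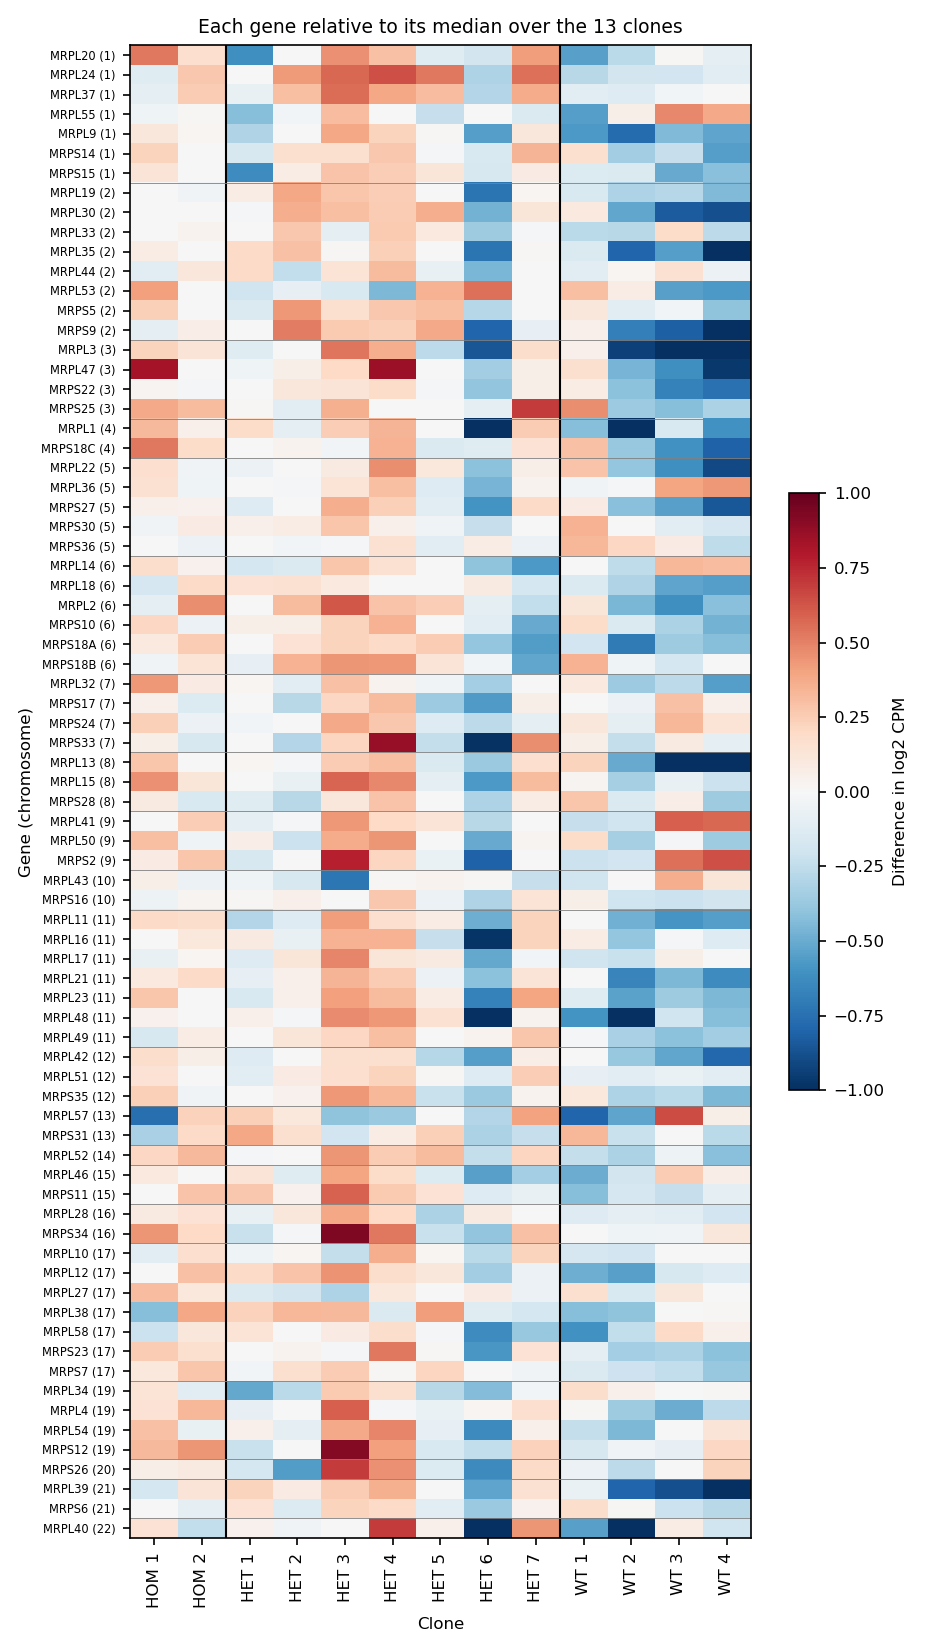
Difference in log2 CPM of each gene (rows, grouped by chromosome, its number in brackets) from its own median over the 13 clones (columns, HOM, HET, WT), with colours clipped at -1 and 1. HET 3 (64 of 76 genes above their median) and HET 4 (71) are mostly red, HET 6 (66 of 76 below) and WT 2 (69), WT 3 (50) and WT 4 (55) mostly blue, and the 6 genes of chromosome 6 are all lower in HET 7, with a median of -0.51.

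Other genes of the same machinery and its regulators were read from lists of 61 genes, of which 0 passed the threshold by edgeR in any comparison. Of these, 13 are genes of mitochondrial transcription and regulators of biogenesis, such as MYC and YY1, and not parts of the ribosome. The counts and shares that follow pool all 61. At an unadjusted p under 0.05, 9 (14.8%) were higher in HET against WT, against 9.73% of all genes, and 5 (8.2%) were lower, against 8.73%. In HOM against WT 7 (11.5%) were higher, against 7.52% of all genes, and 2 (3.28%) lower, against 6.84%. DESeq2 called 3 (4.92%) in HET against WT (GADD45GIP1 and SLIRP higher, GABPA lower), against 4.98% of all genes, and 0 in HOM against WT, against 1.71%. The voom fit called 17 (27.9%) in HET, against 20.8% of all genes, and 1 (1.64%) in HOM, against 2.94%. The 5 ribosome proteins with other names had median log2 fold changes of 0.29 in HET and 0.27 in HOM, led by GADD45GIP1 (0.68 in HET, adjusted p = 0.12, and 0.74 in HOM, adjusted p = 0.26, edgeR), which is a large subunit protein. It had 15.5 and 15.9 CPM in HOM, 8.68 to 20.8 CPM in HET and 7.24 to 10.5 CPM in WT clones. The 25 assembly and RNA modification factors had medians of 0.20 and 0.24, and the lowest p in HET against WT belonged to ERAL1, the chaperone of the small ribosomal RNA (0.42, adjusted p = 0.13, edgeR). METTL15 (0.52) and MPV17L2 (0.49) had larger fitted changes there. The 16 translation factors had medians of 0.22 and 0.23. Among them SLIRP, which stabilises mitochondrial messenger RNA with LRPPRC, had 48.9 and 39.1 CPM in HOM, 23.4 to 45.4 CPM in HET and 35.8, 18.7, 18.1 and 14.2 CPM in WT clones (log2 fold change 1.02 in HOM, adjusted p = 0.22, and 0.79 in HET, adjusted p = 0.11, edgeR).

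The fitted changes of GABPA, YY1 and NRF1, which read the promoter letters above, were below 0, those of NRF1 by less than their SE. The fitted changes of GABPB1, another GABP gene, were above 0. GABPA, the DNA-binding subunit of GABP, had 145.7 and 113.2 CPM in HOM, 108.5 to 148.5 CPM in HET and 180.4, 188.7, 170.0 and 169.3 CPM in WT clones. No edited clone reached a WT clone, and the log2 fold change was -0.46 in HET (SE 0.11, adjusted p = 0.077, edgeR) and -0.45 in HOM (SE 0.16, adjusted p = 0.25, edgeR). YY1 had log2 fold changes of -0.27 in HET and -0.29 in HOM, and NRF1 -0.03 (SE 0.12) and -0.12 (SE 0.17). Those of GABPB1 were 0.13 (SE 0.14) in HET and 0.08 (SE 0.19) in HOM. The ribosomal RNAs themselves, MT-RNR1 and MT-RNR2, had log2 fold changes of -0.89 and -0.58 in HET (adjusted p = 0.16 and 0.33, edgeR) and 0.31 and -0.03 in HOM. MT-RNR1 had 984.4 and 206.6 CPM in HOM, 169.9 to 356.2 CPM in HET and 493.7, 431.9, 534.1 and 464.3 CPM in WT clones. The libraries were selected for poly(A) RNA, so this measures only the RNA that such a selection keeps. The 82 cytosolic ribosomal protein genes had medians of -0.10 in HET and -0.18 in HOM, and the difference from the mitochondrial ones was not tested.

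Reads of near-identical copies and overlapping genes limit some values. Of the 76 members 33 have annotated pseudogenes with a row in the table, 64 rows in all. Only for MRPS31 did they hold over 10% of the parent's count (28.1%), which leaves its level uncertain. No source used here says how reads that match several places were counted. A low count on a pseudogene row therefore does not show that the parent's level is unaffected. Exonic bases are shared with a gene on the same strand by 16 members and with a gene on the other strand by 29, and no source used here gives the strand setting of the counting.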

How the data were processed

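RNA from 13 clones was prepared with a TruSeq stranded mRNA kit, per the labels' protocols. The authors deposited raw read counts per gene. Trimmomatic 0.36, STAR and featureCounts 1.5.3 with hg19 are named in the submitters' processing notes, and no source used here gives the annotation or the strand setting. Identifiers were matched without version to GENCODE release 29 for 51204 of 56238 rows. Symbols, gene types, chromosomes, exon lengths, GC content and the exon positions behind the counts of overlapping genes were taken from it. Promoter sequence is from RefSeq (GRCh38.p14).

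The counts of all 13 clones were fitted in 1 model with genotype as the only term (R 4.3.3, edgeR 4.0.16, TMM factors, filterByExpr, robust quasi-likelihood test), and p-values were adjusted by Benjamini-Hochberg over 20320 genes at a threshold of 0.05. Log2 CPM used a prior count of 2. The fit was also run on simulated counts, drawn for each gene without shifts shared across a clone or a chromosome. That run is no check of the fit under such shifts. Alternatives were other normalization, count filters, DESeq2 1.42.0, limma voom 3.58.1 with sample weights, 1 surrogate variable (sva 3.50.0), GC and length offsets, chromosome medians removed, only the groups compared, and each clone left out. Clone numbers follow the order of the labels and only name clones.

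Named genes were those of lowest p per comparison and direction, the highest and lowest levels per length, the widest spreads and a fixed set of paralogs and functional proteins. The chromosome examples, MRPL30 and members listed by other fits were chosen after their values were seen. The members and lists were chosen with earlier results of these data known.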

Additional observations from a re-analysis of the deposited data

Results flagged for a closer look

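Among 84 sets of clones tested (log2 CPM of the named members and the mean of each subunit, in the HET and in the WT clones), 5 had a clone whose gap to its nearest neighbour took up more of the group's range than the critical share for its size (0.568 for 7 clones), and chance flags about 1 in 20. MRPL40 and MRPL48 were named for their wide spread among HET clones and the other 3 for their HET against WT fit, so that rate does not apply to them. HET 6 was the isolated low clone for MRPL35 (0.716 of the range), MRPL39 (0.596), MRPL40 (0.585) and MRPL48 (0.718). HET 6 had 42.2 CPM of MRPL35, 38.8 CPM of MRPL39, 20.9 CPM of MRPL40 and 13.0 CPM of MRPL48. The next lowest HET clone had 70.2, 55.9, 42.6 and 30.7 CPM of the same genes. HET 3 was the isolated low clone for MRPL43 (0.645 of the range), with 19.1 CPM, in the clone whose chromosome 10 median was -0.24.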

How the results depend on the processing

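edgeR called 0 members in each comparison, and this count stood under the 8 other edgeR settings run with all clones and in fits of only the groups compared. In HET against WT, DESeq2 called 8 and voom with sample weights 29, and leaving out 1 clone gave 0 to 15 while 0% to 7.74% of all genes were called. In HOM against WT, voom called 4 and leaving out 1 clone gave 0 to 2 while 0% to 1.22% of all genes were called. With 1 surrogate variable the medians became 0.096 (large) and -0.049 (small) in HET against WT, and 0.117 (large) and -0.087 (small) in HOM against WT. It also turned MRPL43 in HET against WT to 0.013 and MRPL55 in HOM against WT to 0.033. MRPL37 in HOM against HET ran from -0.347 to 0.023 when 1 clone was left out, and was 0.016 without WT 2, HET 2 and HOM 1 together. The cause was not tested. Of the other results, 239 summary values and 623 single-gene values kept their direction and side of the threshold, and 23 single-gene values passed the threshold only under an alternative. No paired analysis was run. Some clones of different genotypes share the first part of the clone name in their titles, but the labels do not say what that part means. There were 2 HOM clones, each clone came from 1 cell, and every member had 189 counts or more in each clone.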

Other observations

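Within the translation factors, further genes had fitted values in both directions against WT. TFAM and PPARGC1B below are named after their values were seen. MTIF3, an initiation factor, had log2 fold changes of -0.50 in HOM and -0.36 in HET, and MTRF1, a release factor, -0.62 and -0.70, each against WT. TACO1, an activator of COX1 translation, had 0.52 in HOM and 0.54 in HET, and MTIF2, the other initiation factor, 0.29 and 0.39. Among the regulators, TFAM, the factor that packages mitochondrial DNA, had 0.67 in HOM and 0.40 in HET, and the coactivator PPARGC1B 0.70 and 0.38. None passed an adjusted p of 0.05 by edgeR.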
